A study of Mus musculus with 6 samples.

Results

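The 9 genes described here are ones with which the gut epithelium defends its surface, and they were followed across 3 organs of mice fed barley flour or cellulose. They are Fut2, Reg3a, Reg3b, Reg3g, Retnlb, Nos2, Duox2, Duoxa2 and Tifa. The 9 genes were chosen by name, with the BF and control levels in the ileum already known, so their ileum difference is a description of selected genes. A gene was read from the probe set that the array's gene table lists under its symbol alone. Of the 9 genes, 8 had 1 such probe set each, out of 22180 genes on the array with a probe set of their own. Duoxa2 had none, since its only probe set is listed for both Duoxa2 and Duoxa1, and that probe set can be read as neither gene.

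The arrays measured ileum, liver and epididymal adipose tissue of male C57BL/6J mice that were bought at 4 weeks of age and fed a high-fat diet with lard for 92 days. In the BF group the dietary fiber came from flour of the β-glucan-rich barley "Beau Fiber", and in the control group it came from cellulose. The BF diet also held less corn starch and slightly less lard, so the diets differed in more than the source of fiber. The RNA of all mice on a diet was mixed for each organ and run on a single array, which gave 6 GeneChip Mouse Gene 2.0 ST arrays, so there is no spread between mice and no difference was tested. All values are log2 expression levels from robust multichip analysis, so a difference of 1 is a change of 2 fold. For the adipose array of the BF group, 1 label names cellulose while its title and its fiber entry name barley, and it was read as BF. The adipose arrays are labelled as adipocytes, whereas the methods name epididymal fat tissue.

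The intestinal epithelium faces a dense bacterial flora and answers it with several layers of defence. FUT2 adds fucose to the sugar chains on the epithelial surface, where bacteria can use it. The REG3 proteins are secreted lectins, of which REG3G acts on Gram-positive bacteria, and RELMβ, the product of Retnlb, is secreted by goblet cells. NOS2 makes nitric oxide and DUOX2 releases hydrogen peroxide at the luminal side of the cell, for which it needs its maturation factor DUOXA2. TIFA is an adaptor protein that carries the signal of the kinase ALPK1, a sensor of bacterial ADP-heptose, to TRAF6 and NF-κB.

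In the ileum, Fut2, Tifa, Reg3a and Nos2 were higher in the BF array than in the control array by more than 1.3 fold, the threshold of the study's methods. Duox2, Reg3b, Reg3g and Retnlb lay between the thresholds, and no gene of the set was below 0.77 fold. Of all 22180 genes, 4.27% were above 1.3 fold and 3.88% below 0.77 fold in the ileum, and 4 of the 8 genes were above and 0 below. As the genes were selected on this contrast, nothing is read from these counts. Of the 4 higher genes, Nos2 had the smallest difference at 1.48-fold, and Duox2 was just under the threshold at 1.25-fold.

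The genes of the set with neighbours or close relatives in the genome are Reg3a, Reg3b and Reg3g, which lie in the cluster of Reg genes on mouse chromosome 6, and Duox2 and Duoxa2, which lie head to head on chromosome 2. Their upstream sequences are shown because Reg3b and Reg3g had almost equal levels on both diets while Reg3a did not, and because a single short stretch separates the annotated genes Duox2 and Duoxa2. They come from the RefSeq annotation of the build GRCm38.p6 and are given 5′ to 3′. For each Reg3 gene these are the 150 bases before the annotated start, on the gene's strand, at chr6:78370735-78370884 (plus strand) for Reg3b, chr6:78468875-78469024 (minus strand) for Reg3g and chr6:78380559-78380708 (plus strand) for Reg3a. For Duox2 and Duoxa2 it is the whole stretch of 159 bases between the annotated ends of both genes, chr2:122298741-122298899, on the plus strand, on which Duoxa2 is read. Capitals mark matches on either strand to TATAAA, the TATA box, or to TTCNNNGAA, the letters of STAT binding sites.
Reg3b: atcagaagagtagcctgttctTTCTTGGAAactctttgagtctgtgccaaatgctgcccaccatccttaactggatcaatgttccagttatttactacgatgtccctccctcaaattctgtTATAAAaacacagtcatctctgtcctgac
Reg3g: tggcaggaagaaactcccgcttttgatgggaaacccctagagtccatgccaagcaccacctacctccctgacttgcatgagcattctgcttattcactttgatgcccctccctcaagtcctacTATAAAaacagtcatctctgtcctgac
Reg3a: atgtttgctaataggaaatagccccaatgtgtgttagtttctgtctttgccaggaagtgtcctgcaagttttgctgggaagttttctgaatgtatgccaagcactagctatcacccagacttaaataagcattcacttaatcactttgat
Duox2 and Duoxa2: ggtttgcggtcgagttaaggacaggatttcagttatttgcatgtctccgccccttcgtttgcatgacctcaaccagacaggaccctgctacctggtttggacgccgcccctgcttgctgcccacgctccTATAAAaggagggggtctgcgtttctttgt

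Reg3b and Reg3g shared the last 20 bases before their starts without a mismatch, and 69.5% of the columns of an alignment of the 2 flanks were identical. The flank of Reg3a was identical to that of Reg3b in 52.4% of the alignment columns and to that of Reg3g in 40.2%, and its longest run in common was 7 bases with Reg3b and 11 bases with Reg3g. TATAAA began 29 bases before the start in Reg3b, 27 bases before it in Reg3g and 30 bases before it in Duoxa2, and was not found in the 250 bases before the start of Reg3a. Farther upstream, Reg3g had another match on the opposite strand, 161 to 156 bases before its start. A window of Tifa had overlapping matches on both strands, from 241 to 234 bases before its start. TTCNNNGAA began 129 bases before the start of Reg3b. Of 32851 annotated starts, 12.4% had TATAAA and 7.02% had TTCNNNGAA in the 250 bases before them. Each TATAAA of Reg3g, and that of Duoxa2, overlaps a match to TTTATNG, the letters of the intestinal factor CDX2, on the strand opposite to it. Of all the starts, 9.81% had those letters. These matches are a description of the letters only. A window before the start was found for 6 of the 9 genes, Fut2, Nos2 and Retnlb not being among them.

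The Fut2 level in the ileum was 8.92 in the BF array and 7.06 in the control array. The difference of 1.85 is 3.62-fold, and among the 7918 genes whose 2 ileum arrays averaged 6 or more it ranked second, after Ighg3, an immunoglobulin heavy chain gene (7.33 in BF and 5.03 in control, a difference of 2.29), and before Tat, tyrosine aminotransferase, with a difference of 1.80. Of these 7918 genes 10 were above 2 fold, and Fut2 was the single gene of the set among them. The central 95% of the genes within 1 log2 unit of its mean signal had differences between -0.29 and 0.36. Outside the ileum, Fut2 was low on every array. Its level was 2.32 in BF and 2.91 in control liver, and 3.24 in BF and 3.18 in control adipose tissue. The liver difference of -0.60 was past the 0.77-fold threshold and had the opposite sign to that of the ileum, at levels under the median of those arrays, which was 3.40 on both. With values below 5 set to 5, the liver difference was 0.

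The enzymes and carriers around FUT2 did not share its difference. Of the 18 listed genes of fucose transfer and GDP-fucose supply, 16 other than Fut2 were measured, and in the ileum 0 were above 1.3 fold and 0 below 0.77 fold. Their median difference was 0.03, against 0.00 over all genes, and they lay between -0.25 and 0.27. Fut1, the other α1,2-fucosyltransferase gene with a probe set of its own, had 3.68 in BF and 3.93 in control ileum. Sec1, the third of the group in mice, was not on a probe set of its own. The supply of the donor sugar was close to equal, with differences of -0.03 for Gmds and -0.05 for Gfus, which make GDP-fucose from GDP-mannose, and 0.00 for Slc35c1, which carries it into the Golgi. Fpgt, of the salvage route from free fucose, had 6.61 in BF and 6.35 in control ileum, a difference of 0.27 that did not reach the threshold. In the liver 1 of the 16 genes was higher and 1 lower, and in adipose tissue 0 were higher and 1 lower.

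**Figure D1:**
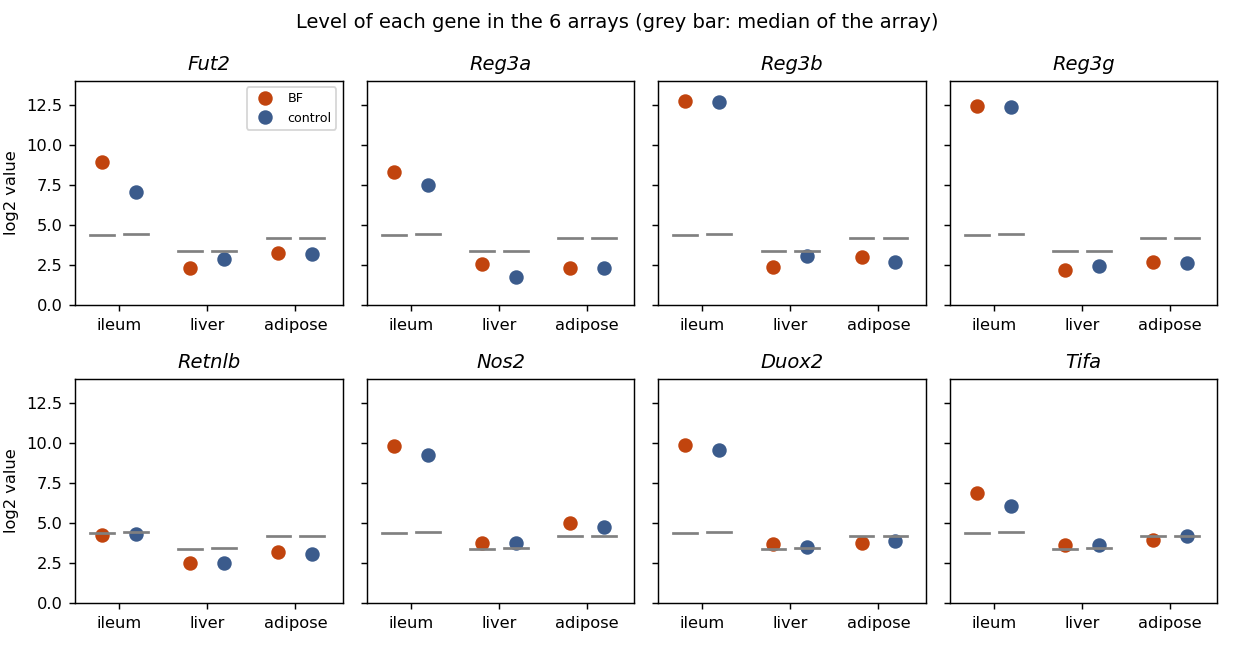
Log2 expression level of the 8 genes with a probe set of their own in each of the 6 arrays, BF left of control in each organ. Points are single arrays of pooled RNA, so there are no error bars, and grey bars mark the median of all probe sets on the array. For all 8 genes both ileum arrays were above the 4 arrays of liver and adipose tissue. Fut2 had 8.92 in BF and 7.06 in control ileum, and Reg3b and Reg3g were above 12 on both.

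The 3 Reg3 genes differed among themselves. Reg3b had 12.72 in the BF and 12.68 in the control ileum, and Reg3g had 12.45 in the BF and 12.37 in the control ileum. Their differences of 0.04 and 0.07 are 1.03-fold and 1.05-fold, inside the central 95% of genes of like signal, which was -0.18 to 0.21 for Reg3b and -0.18 to 0.25 for Reg3g. Both genes were close to the highest value of any probe set, 13.18 on the BF and 13.16 on the control ileum array, where a difference can be compressed, and this was not tested. Reg3a, by contrast, had 8.30 in the BF and 7.50 in the control ileum. This difference of 0.80, or 1.74-fold, is outside the range of -0.29 to 0.36 of genes of like signal, and its rank among the 7918 genes was 24. The coding sequences of Reg genes are alike, so that a probe set of one can bind RNA of another, and this was not tested.

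In the other organs the Reg3 genes were at low levels. Reg3b had 2.41 in BF and 3.09 in control liver, below 0.77 fold, and 3.03 in BF and 2.70 in control adipose tissue. Reg3g had 2.23 in BF and 2.47 in control liver, and 2.68 in BF and 2.65 in control adipose tissue. Reg3a had 2.57 in BF and 1.77 in control liver, above 1.3 fold, and the same value of 2.29 on both adipose arrays. None of these values reached a log2 level of 5, and the liver differences of Reg3a and Reg3b past the thresholds were between arrays that both read low.

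Between Reg3b and Reg3g on chromosome 6 the annotation places Reg3d, Reg3a, Reg2 and Reg1, with no other protein-coding gene among them. In the ileum Reg1 had 4.31 in BF and 4.81 in control, Reg2 had 2.25 in BF and 2.36 in control, and Reg3d had 3.32 in BF and 2.94 in control. Reg3d was just above 1.3 fold and Reg1 below 0.77 fold, both at levels under 5. Reg4, which lies apart on chromosome 3 and is expressed in the gut, had 9.44 in BF and 9.51 in control ileum. Of these 4 Reg genes 1 was therefore higher and 1 lower, with a median difference of -0.09.

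Retnlb was the gene of the set with the smallest gap between ileum and the other organs. It had 4.22 in BF and 4.31 in control ileum, just under the medians of those arrays of 4.39 and 4.42. It had the same value of 2.5 on both liver arrays, and 3.16 in BF and 3.08 in control adipose tissue. Of the 3 other resistin-like genes 0 were higher and 2 lower in the ileum. Retn, the adipokine resistin, had 5.44 in BF and 6.15 in control ileum, and Retnla had 2.88 in BF and 3.70 in control. Retnlg, of neutrophils, had 3.44 in BF and 3.37 in control. Retn is also a marker of adipocytes, and of the 7 adipocyte markers measured, 0 were higher and 5 lower in the ileum of the BF group, with a log2 summed level of 9.02 in BF and 9.42 in control. The part of adherent fat in the Retn difference was not tested.

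The other secreted antimicrobial proteins were measured by 19 genes. In the ileum 3 of them were higher and 0 lower, with a median difference of 0.10. Pla2g2a, the secreted phospholipase of Paneth cells, had 8.69 in BF and 8.31 in control, just above the threshold at 1.31-fold. Lcn2, the siderophore-binding lipocalin, and Slpi, a protease inhibitor, completed the 3 and were chosen for naming after their values were seen. Lcn2 had 5.55 in BF and 5.05 in control, and Slpi had 5.83 in BF and 5.27 in control. In the liver 0 were higher and 4 lower, among them Lcn2 with 5.13 in BF and 9.0 in control, and in adipose tissue 3 were higher and 3 lower.

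Among the genes that produce reactive molecules, Nos2 had 9.78 in the BF and 9.22 in the control ileum. The difference of 0.56, or 1.48-fold, is outside the range of -0.24 to 0.35 of genes of like signal. In the liver Nos2 had the same value of 3.75 on both arrays. In adipose tissue it had 5.0 in BF and 4.77 in control, and this BF array was the only one outside the ileum on which a gene of the set reached a level of 5. Of 8 markers of macrophages, a well known source of NOS2, 0 were higher and 7 lower in the BF adipose array, where 6.16% of all genes were lower. The part of macrophages in the adipose Nos2 values was not tested.

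The genes that supply or compete with NOS2 had no difference past a threshold in the ileum. Of 14 measured genes of nitric oxide and arginine metabolism 0 were higher and 0 lower, with a median difference of -0.10 and a range from -0.27 to 0.28. Nos1, the neuronal synthase, had 4.57 in BF and 4.84 in control, and Nos3, the endothelial synthase, had 4.68 in BF and 4.79 in control. The highest of the 14 was Slc7a1, an arginine transporter, with a difference of 0.28. Arg2, a mitochondrial arginase that uses the same substrate, had a difference of -0.23.

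Duox2 had 9.88 in the BF and 9.56 in the control ileum. Its difference of 0.32, or 1.25-fold, did not reach 1.3 fold. This difference lay inside the range of -0.25 to 0.33 of genes of like signal, of which 97.1% had a smaller difference. In the liver Duox2 had 3.66 in BF and 3.47 in control, and in adipose tissue 3.75 in BF and 3.84 in control. The probe set listed for both Duoxa2 and Duoxa1 had 10.0 in BF and 9.31 in control ileum, a difference of 0.69 or 1.61-fold. It had 3.22 in BF and 3.19 in control liver, and 3.64 in BF and 3.85 in control adipose tissue. Duoxa1, the maturation factor of DUOX1, also has a probe set of its own, which had 4.26 in BF and 4.27 in control ileum. The shared probe set was thus higher in BF ileum while the Duoxa1 probe set had a difference of -0.02, and which of the 2 genes the shared one measured was not tested.

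Of the 12 other oxidase genes measured, 2 were higher and 0 lower in the ileum, with a median difference of 0.08. Both belong to the oxidase of phagocytes. Cybb, its catalytic subunit, had 8.16 in BF and 7.68 in control, and Rac2, its small GTPase of blood cells, had 8.62 in BF and 8.08 in control. Macrophage markers were 2 higher and 0 lower of 8, with a log2 summed level of 10.34 in BF and 10.11 in control ileum. Of the epithelial oxidases other than Duox2, Nox1 had 5.32 in BF and 5.53 in control. Duox1 had 3.70 on both arrays, under their medians of 4.39 in BF and 4.42 in control. The part of phagocytes in the Cybb and Rac2 differences was not tested. In adipose tissue 0 of the 12 were higher and 4 lower, Cybb among them with 7.93 in BF and 8.79 in control.

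Tifa had 6.85 in the BF and 6.04 in the control ileum. The difference of 0.81, or 1.76-fold, is outside the range of -0.36 to 0.44 of genes of like signal, and its rank among the 7918 genes was 23, next to that of Reg3a. It had 3.6 in BF and 3.65 in control liver, and 3.94 in BF and 4.20 in control adipose tissue, so that neither of the other organs was past a threshold. Its partners did not share the difference. Traf6, the ligase to which TIFA binds, had 6.78 in BF and 6.50 in control ileum, and Tifab, a related protein, had 5.54 in BF and 5.48 in control. The kinase gene Alpk1 had no probe set of its own. Of 15 genes of ALPK1, TIFA and NOD signalling other than Tifa, 0 were higher and 1 lower, with a median difference of 0.06. The lower one was Nod1, a sensor of bacterial peptidoglycan named after its value was seen, with 5.09 in BF and 5.50 in control. Nfkbia, an early target of NF-κB, had a difference of 0.35 that stayed under the threshold.

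**Figure D2:**
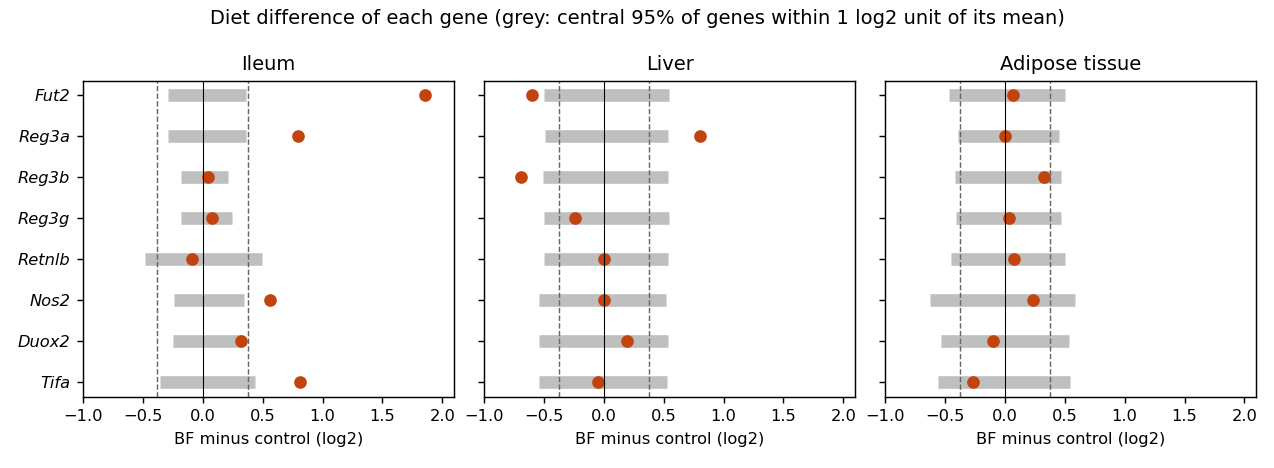
BF minus control difference (log2, horizontal axis) of the 8 genes in ileum, liver and adipose tissue, 1 point for each pair of arrays. Grey bars span the central 95% of genes within 1 log2 unit of mean signal and dashed lines mark 1.3 fold and 0.77 fold. In the ileum Fut2 stood at 1.85 and Tifa, Reg3a and Nos2 at 0.81, 0.80 and 0.56, outside their grey bars. In the liver Fut2 at -0.60, Reg3b at -0.69 and Reg3a at 0.80 were outside theirs too, all at levels under 5. In adipose tissue all 8 points were inside.

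Across the 8 genes the ileum differences had a median of 0.44, against 0.00 over all genes, and ran from -0.08 for Retnlb to 1.85 for Fut2. Of the 8 genes 7 had a mean level of at least 6 in the ileum, where 2.68% of all genes of that level were above 1.3 fold. Because the set was selected on this contrast, nothing is read from its median or from that share. The same holds for the ileum ranks of its genes and for their place among genes of like signal. The plot of ileum difference against signal shows each gene beside all others.

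**Figure D3:**
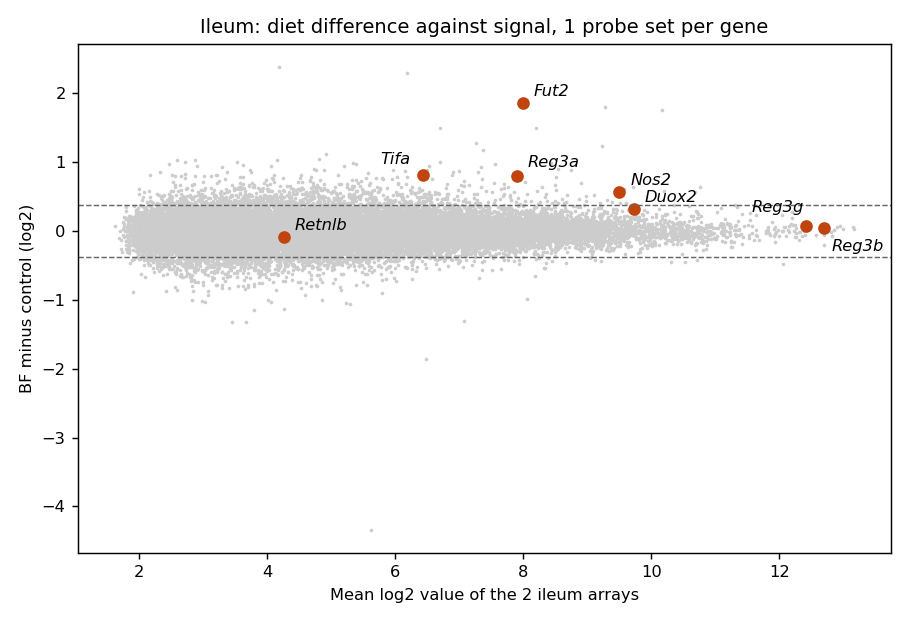
BF minus control difference (log2, vertical axis) against the mean log2 value of both ileum arrays (horizontal axis) for 22180 genes (grey) and the 8 named genes (orange). Dashed lines mark 1.3 fold and 0.77 fold. Fut2, Tifa, Reg3a and Nos2 are above the upper line, Duox2 just under it at 0.32, and Reg3b and Reg3g near 0 at the right end.

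In the liver 1 of the 8 genes was above 1.3 fold, against 6.11% of all genes, and 2 were below 0.77 fold, against 5.97%. The higher one was Reg3a and the lower ones were Fut2 and Reg3b. None of the 8 reached a level of 5 on either liver array, so that with values below 5 set to 5 the liver counts were 0 and 0. The median difference was -0.02. In adipose tissue 0 of the 8 were higher and 0 lower, where 6.67% of all genes were above and 6.16% below the thresholds. The median there was 0.05, against 0.01 over all genes, and the widest difference was 0.33 for Reg3b. The adipose pair differed in its tissue content, since 6 of 7 epididymis markers were lower in the BF array, with a median difference of -2.95. How much that bears on the adipose values of the set was not tested.

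The signal of all 8 measured genes was higher in the ileum than in the other organs. For each, the lower ileum array was above the highest of the 4 other arrays. The gap between these measured log2 values was 9.69 for Reg3g and 9.58 for Reg3b, whose liver and adipose values were all under the medians of their arrays and whose ileum values were near the top of theirs, so the size of these gaps is not that of a fold change in RNA. It was 5.72 for Duox2, 4.93 for Reg3a, 4.22 for Nos2 and 3.82 for Fut2. Tifa, which is also expressed outside the gut, had a gap of 1.83. Retnlb had one of 1.06, with both ileum values under the medians of their arrays and under 5, and the array medians were themselves 4.39 and 4.42 in BF and control ileum and 3.40 on both liver arrays. In the BF and control ileum arrays all 8 enterocyte markers, such as Vil1 and Sis, had levels above 10, the median level of hepatocyte markers was 12.4 on both liver arrays, and that of adipocyte markers was 11.8 in BF and 11.9 in control adipose tissue, so each tissue carried the markers of its label.

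The genes whose pattern over the 6 arrays was most like that of a gene of the set were found by the root mean square difference after each gene was centred on its own mean, over 9790 genes with a mean level of at least 5. With 6 arrays from 3 organs, this likeness rests mainly on the contrast of ileum with the other organs. Closest to Reg3g was Clca4b at 0.13, and closest to Reg3b was Ang4, an antimicrobial ribonuclease of Paneth cells, at 0.17. Ang4, Clca4b and the defensin gene Defa35 were the 3 closest to both. Among the genes of the set themselves, Reg3b and Reg3g were the closest pair at 0.17, followed by Reg3a and Duox2 at 0.29. Closest to Fut2 was Lct, the lactase of the brush border, at 0.27, with 8.95 in BF and 7.45 in control ileum, ahead of Cd79a at 0.42 and Ptk6 at 0.43. Closest to Tifa was Stom at 0.12, then Socs3 at 0.22 and Sct at 0.23. Closest to Nos2 was Ppp1r14d at 0.15, closest to Duox2 was Elapor1 at 0.16, and closest to Reg3a was Gal3st2b at 0.28.

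Signals that are known to act on these genes in the gut were described from lists. IL-22, a cytokine of lymphoid cells, acts through its receptor and STAT3 to induce Fut2 and the Reg3 genes in mouse epithelium. In the ileum Il22 itself had 1.94 in BF and 1.65 in control, a low signal, and its receptor Il22ra1 had 9.42 in BF and 9.59 in control. Il22ra2, the soluble receptor that binds IL-22 away, had 4.37 in BF and 4.06 in control. None of these 3 was past a threshold. Of the 22 measured genes of the IL-22, IL-17 and IL-23 axis, 6 were higher and 0 lower, with a median difference of 0.25. Of all genes in the ileum, 4.27% were higher and 3.88% lower. No gene of IL-22, IL-17 or IL-23 or of their receptors was among the 6. The widest difference of the 6 was that of Socs3, a feedback inhibitor of STAT3 signalling, with 7.80 in BF and 6.87 in control, or 1.90-fold. Il18bp, which binds IL-18, had a difference of 0.55, Il1r1, an IL-1 receptor, one of 0.53, Osmr, a receptor subunit for oncostatin M, one of 0.42 and Il18 one of 0.38. The sixth was Il1b, named after its values were seen, with 5.78 in BF and 5.12 in control. In the liver and in adipose tissue 1 of the 22 was higher and 1 lower.

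Of 18 measured genes of the toll-like receptors and MyD88, 1 was higher and 0 lower in the ileum, with a median difference of 0.07. It was Myd88, the adaptor of most toll-like receptors, with 8.38 in BF and 7.67 in control, or 1.64-fold. In the liver 1 of the 18 was higher and 5 lower, and in adipose tissue 0 were higher and 8 lower. All 3 measured serum amyloid A genes were higher in the BF ileum, at low levels, Saa3 having 5.75 in BF and 5.36 in control, Saa2 3.67 in BF and 3.06 in control, and Saa4 3.45 in BF and 3.05 in control. In the liver 2 of them were lower, Saa2 with 6.43 in BF and 11.73 in control. On the IL-4 and IL-13 axis, to which Retnlb responds in the mouse gut, 1 of 11 measured genes was higher in the ileum and 0 lower, namely Il33 with 6.81 in BF and 6.33 in control, and the median difference was -0.03.

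**Figure D4:**
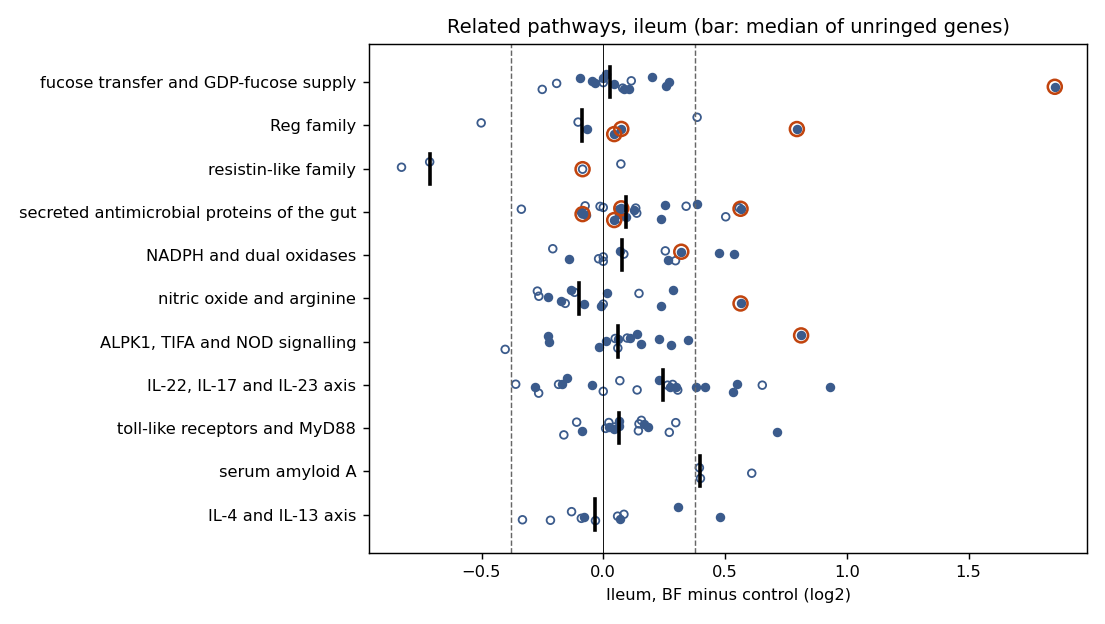
BF minus control difference in the ileum (log2, horizontal axis) of the genes in 11 pathway lists. Each point is 1 gene, filled where its mean ileum level is at least 6. Orange rings mark genes of the set, vertical bars the median of the other genes of the list, and dashed lines 1.3 fold and 0.77 fold. Fut2, at 1.85, lies apart from the other fucose genes, which run from -0.25 to 0.27, and the list of the IL-22, IL-17 and IL-23 axis has its median at 0.25.

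Whole ileum was measured, so a change in the share of a cell type and a change of RNA in each cell cannot be told apart. Markers of enterocytes, goblet cells and Paneth cells were at nearly equal levels on both diets. Of 8 enterocyte, 8 goblet cell and 6 Paneth cell markers 0 were past a threshold, with median differences of 0.07, 0.02 and 0.09. Their log2 summed levels were 14.72 in BF and 14.68 in control for enterocytes, 14.40 in both for goblet cells and 15.04 in BF and 14.95 in control for Paneth cells. Enteroendocrine cell markers were 2 higher and 0 lower of 8, with a median difference of 0.23. Their log2 summed level was 10.95 in BF and 10.78 in control. Tuft cell markers were 1 higher and 0 lower of 7. Markers of M cells and follicle epithelium were 2 higher and 0 lower of 8, with Gp2, the defining M cell gene, not past a threshold.

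Some markers of lymphoid cells and of the upper small intestine were higher in the BF ileum array, beside the genes of the set. Of 9 B and plasma cell markers 5 were higher and 0 lower, with a median difference of 0.47 and a log2 summed level of 11.77 in BF and 11.50 in control. Of all genes in the ileum, 4.27% were higher and 3.88% lower. Cd79a, of the B cell receptor, had 8.81 in BF and 8.20 in control, and T cell markers were 2 higher and 0 lower of 5, with Cd3d at a difference of -0.14. Listed markers of ILC3 and Th17 cells were 2 higher and 0 lower of 7, with a median difference of 0.17. The higher ones were Ccr6, named after its values were seen, with 4.92 in BF and 4.40 in control, and Il1r1. On both diets the level of Il1r1 was higher in liver and adipose tissue than in ileum. Il22, Il23r, Il17a and Ncr1 were under 5 in the ileum and not past a threshold. Of 8 markers of the proximal small intestine 3 were higher and 0 lower, with a log2 summed level of 12.39 in BF and 12.05 in control. They were Lct, with a difference of 1.5, Fabp1, a fatty acid-binding protein, with 1.18, and Slc40a1, the iron exporter, with 0.64. The other 5 ran from -0.20 for Ada to 0.34 for Cubn. Of 6 colon markers 0 were higher and 1 lower, Car1, a carbonic anhydrase, which had 3.46 in BF and 7.80 in control. Smooth muscle markers were 0 higher and 0 lower of 8, with a median difference of -0.17. The part of lymphoid tissue, or of the position along the gut at which the ileum was taken, in the differences of Fut2, Tifa, Reg3a and Nos2 was not tested.

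**Figure D5:**
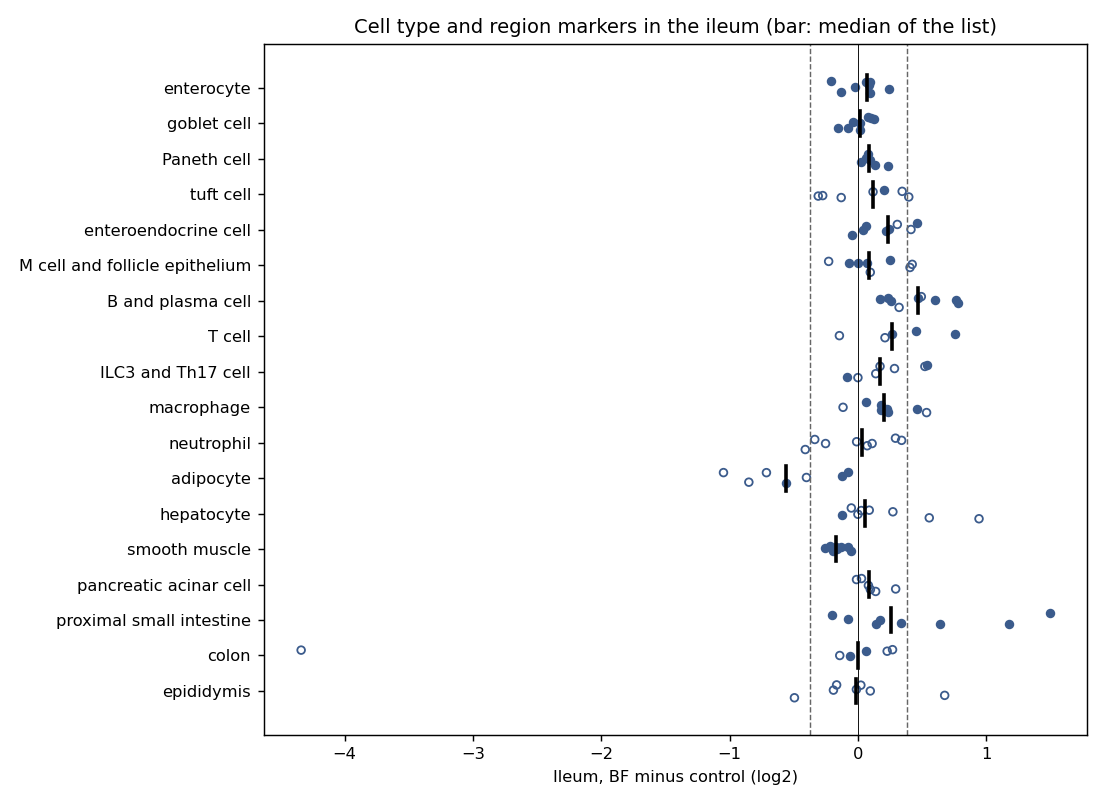
BF minus control difference in the ileum (log2, horizontal axis) of markers in 18 lists of cell types and regions. Each point is 1 gene, filled where its mean ileum level is at least 6, vertical bars are medians and dashed lines mark 1.3 fold and 0.77 fold. Enterocyte, goblet and Paneth cell markers lie within the thresholds, B and plasma cell markers have a median of 0.47, adipocyte markers one of -0.56, and the colon marker Car1 is at -4.34.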

How the data were processed

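RNA of ileum, liver and epididymal adipose tissue was pooled by the authors within each diet group and hybridized to GeneChip Mouse Gene 2.0 ST arrays, 1 array for each organ and diet. The deposited log2 values were made by the authors in Affymetrix Expression Console 1.3 by robust multichip analysis with default parameters, which corrects background, normalizes arrays to each other and summarizes probes. Which arrays were normalized together is not given in the sources used here, and the array build is not named there, so no probe set coordinates are given. Of 41345 probe sets, 23521 carry 1 gene symbol, 1820 several and 16004 none in the gene table used, and 23328 of the first were matched to RefSeq by gene number. They stand for 22180 genes. Where several probe sets carried a symbol, the one with the highest average of the 6 values was used.

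Differences are BF minus control within an organ. Above 1.3 fold a gene was called higher and below 0.77 fold lower, whatever its signal. The count of each list stands beside the shares of all genes called higher and lower. These shares were 4.27% and 3.88% in the ileum, 6.11% and 5.97% in the liver, and 6.67% and 6.16% in adipose tissue. With 1 array for each group, differences have no test and no standard deviation, and their precision is limited by having so few arrays. The share of probe sets with an identical value on both arrays was 4.29% (ileum), 5.16% (liver) and 3.53% (adipose tissue). The members of the set, the 11 pathway lists and the 18 marker lists were chosen with earlier results of these data known. Genes named beside the set were those of each list past a threshold in the ileum with a mean level of at least 6, 20 direct partners, of which 18 had a probe set of their own, and the 3 genes most alike to each member. Other genes are named as chosen after their values were seen or as examples of markers. Motifs were searched on both strands of RefSeq windows. Alternatives were median or lowess centring (span 0.3), quantile normalization of 6 or 2 arrays, averaged probe sets, thresholds of 1.5 and 2 fold, level filters and a floor. The calling was run on simulated data with 2-fold differences put into genes of level 6 or more. Whether smaller differences, or differences at lower levels, would be found was not tested. Python 3.11.15 with pandas 2.3.3, scipy 1.17.1 and statsmodels 0.14.6 was used.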

Additional observations from a re-analysis of the deposited data

Results flagged for a closer look

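The deposited values of Fut2 differed with opposite signs in ileum and liver. In the ileum the level was higher in the BF array (8.92) than in the control array (7.06), and in the liver it was lower in the BF array (2.32) than in the control array (2.91). The ileum difference less the liver difference was 2.45 on the log2 scale. With 1 array for each group this was not tested. Both liver values were under the median of their arrays (3.40 on both), and with values below 5 set to 5 the liver difference was 0, so no direction in the liver is read from them.

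The probe set listed for both Duoxa2 and Duoxa1 lies outside the main measurement, because it carries 2 gene symbols. It had 10.0 in BF and 9.31 in control ileum, a difference of 0.69, which is above the control array. Each group is 1 array, so none was looked at for samples that stand apart.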

How the results depend on the processing

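In the ileum 4 genes were higher and 0 lower, and the scaling, probe set, level and floor alternatives gave the same counts. With a threshold of 1.5 fold 3 were higher, Nos2 no longer being counted, and with one of 2 fold 1 was higher, Fut2. In the liver 1 gene was higher and 2 lower, also at 1.5 fold. With a threshold of 2 fold, with a level of at least 5 or of at least 6 on either array, or with values below 5 set to 5, the count in the liver was 0 higher and 0 lower. No liver gene passed the level filters. In adipose tissue 0 were higher and 0 lower under every alternative run. Over the alternatives, the ileum difference lay between 1.83 and 1.85 for Fut2, 0.80 and 0.81 for Tifa, 0.75 and 0.80 for Reg3a, 0.53 and 0.56 for Nos2 and 0.29 and 0.32 for Duox2. With values below 5 set to 5, all 8 liver differences were 0, those of Fut2, Reg3a and Reg3b among them. Every adipose difference was then 0 except that of Nos2, at 0.003. The ileum difference of Retnlb was also 0. No value counted as higher or lower changed sign. No array could be left out, and no paired analysis was possible because each group is 1 array. Low signal limits the liver comparison, where 0 of the 8 genes reached a level of 5.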
